A study of Mus musculus with 6 samples.

Results

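The mature miRNAs of the miR-17 cluster, which runs from miR-17 to miR-92a, and of its relative, the miR-106b-25 cluster, were followed in mouse lungs with and without bleomycin-induced fibrosis. They were chosen by name, as 9 of the 1963 mouse miRNAs with a probe on the array. The 6 of the miR-17 cluster were mmu-miR-17-5p, mmu-miR-18a-5p, mmu-miR-19a-3p, mmu-miR-20a-5p, mmu-miR-19b-3p and mmu-miR-92a-3p, and the 3 of the miR-106b-25 cluster were mmu-miR-106b-5p, mmu-miR-93-5p and mmu-miR-25-3p. Lung RNA came from 3 untreated wild-type (WT) mice, which received saline only, and from 3 mice given bleomycin (BLM, 1.5 U/kg body weight) through the trachea, the WT-BLM group. All were wild-type C57Bl6 mice, aged 8 to 10 weeks in the study's methods. Their lungs were taken at day 21, and RNA of each mouse was hybridized to an array of its own and stained with a single dye. Whole lung holds many cell types, so that fewer cells of a type and less of a miRNA per cell cannot be told apart.

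A miRNA cluster is transcribed as a single primary RNA, from which several hairpins and then mature miRNAs are cut. The miR-17 cluster is switched on by MYC and E2F transcription factors, promotes proliferation and cell survival, and is needed for normal lung growth before birth. The miR-106b-25 cluster lies in an intron of Mcm7, a gene for DNA replication, and is a paralog of the miR-17 cluster. A miRNA finds its target mRNAs mainly through its seed, so that members of both clusters with the same seed repress overlapping sets of mRNAs. Known targets include the cell cycle inhibitor Cdkn1a and the TGFβ receptor Tgfbr2 for the miR-17 seed, and Bcl2l11, a promoter of cell death, for the miR-92 seed.

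The mature sequences are shown because the seed groups, and the likeness of probes outside the seed, frame every comparison that follows. The sequences are those of RefSeq for GRCm38.p6, and for 9 of 9 miRNAs they equal the target sequence given for the probe on the array. Capitals mark the seed, bases 2 to 8 counted from the 5′ end.
miR-17-5p, chr14:115043684-115043706, plus strand: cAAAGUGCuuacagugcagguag
miR-20a-5p, chr14:115044183-115044205, plus strand: uAAAGUGCuuauagugcagguag
miR-106b-5p, chr5:138165787-138165807, minus strand: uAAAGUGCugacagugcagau
miR-93-5p, chr5:138165574-138165596, minus strand: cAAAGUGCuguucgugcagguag
miR-18a-5p, chr14:115043867-115043889, plus strand: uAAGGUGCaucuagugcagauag
miR-19a-3p, chr14:115044048-115044070, plus strand: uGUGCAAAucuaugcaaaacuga
miR-19b-3p, chr14:115044358-115044380, plus strand: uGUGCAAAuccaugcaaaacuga
miR-92a-3p, chr14:115044476-115044496, plus strand: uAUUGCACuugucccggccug
miR-25-3p, chr5:138165332-138165353, minus strand: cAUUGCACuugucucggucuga

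The 9 miRNAs thus fall into 4 seed groups. The miR-17 seed AAAGUGC and the miR-92 seed AUUGCAC occur in both clusters, while the miR-18 seed AAGGUGC and the miR-19 seed GUGCAAA occur in the miR-17 cluster alone. RefSeq lists the mature miR-19b-3p and miR-92a-3p at a second place each, on chromosome X in the miR-106a-363 cluster, and the array cannot tell which copy a signal came from. The miR-106b-25 hairpins lie within the span of Mcm7. Probes for such similar miRNAs can bind one another's targets. Counted from the 5′ end with the first-named miRNA's base first, miR-19a-3p and miR-19b-3p differ only by U11C. Likewise miR-17-5p and miR-20a-5p differ by C1U and C12U, and miR-92a-3p and miR-25-3p differ by U1C, C14U and C18U over the 21 bases they share.

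Each probe stood on 2 spots of an array. A miRNA counted as detected on an array if its spots averaged above a limit of 3 SD over the median of the 800 empty spots. Tests covered the 275 miRNAs that reached this limit on 3 arrays or more. The limit lay between 24.0 and 178 intensity units above the empty spots, and it was highest on the arrays of WT mouse 3 and WT-BLM mouse 1, where 132 and 176 miRNAs were detected against 270 to 365 on the others. The array of WT mouse 3 also gave weaker signals, its tested miRNAs having a median net intensity of 129 against 224 to 282 elsewhere. All 9 miRNAs passed the filter. Of these, 6 were detected on all 6 arrays and miR-93-5p on 5. The probes for miR-18a-5p and miR-19a-3p were dim and were each detected on only 1 of 3 WT and 2 of 3 WT-BLM arrays.

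WT-BLM lungs were set against untreated WT lungs to ask whether the 9 miRNAs differed in level once fibrosis was established. Levels are given as log2 intensities after background correction with an offset of 50 and quantile normalization between arrays. None of the 9 had an adjusted p under 0.05 in limma, and the adjusted p was 1 for each. Over all 275 miRNAs the share with an adjusted p under 0.05 was 0%, and at an unadjusted p under 0.05 it was 1.82%, or 5 miRNAs, none of them a member. By the methods' paired t-test 9 miRNAs, or 3.27%, were under that unadjusted limit, 2 of them members, miR-18a-5p and miR-92a-3p. By its unpaired form 7, or 2.55%, were under it, 1 of them a member, miR-19a-3p. No miRNA was under 0.05 by either form after adjustment, and the mice were not paired by their numbers. The mean was lower in WT-BLM lungs for 3 of the 9 miRNAs, against 43.6% of all miRNAs tested. The median log2 difference, WT-BLM minus WT, was 0.11 over the 9 and 0.04 over all 275. With 3 mice a group, values that do not overlap give an exact two-sided permutation p of 0.10, the smallest that this design allows. Such values were found for 2 of the 9, miR-20a-5p, higher in WT-BLM mice, and miR-19a-3p, lower in WT-BLM mice. Of all miRNAs tested 4.73% had such values, with 4% higher and 0.727% lower in WT-BLM mice.

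**Figure D1:**
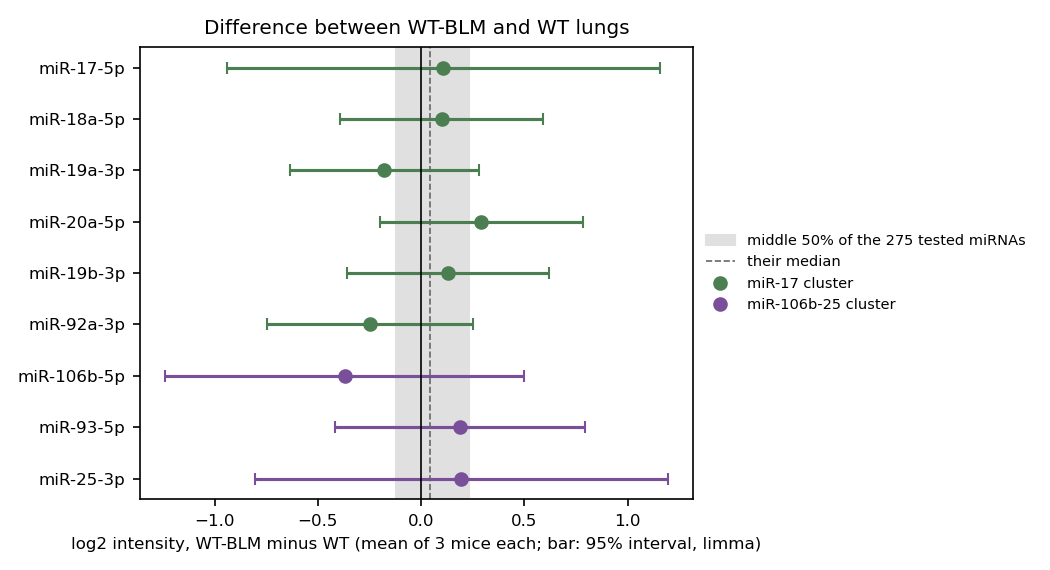
Log2 intensity in WT-BLM minus WT lungs for the 9 miRNAs (means of 3 mice each), with the 95% interval from limma as bars and the middle 50% of the 275 tested miRNAs as a grey band around their median of 0.04 (dashed). The differences lie between -0.37 for miR-106b-5p and 0.29 for miR-20a-5p, and all 9 intervals include 0.

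In the miR-17 seed group, miR-20a-5p and miR-17-5p come from the same primary RNA but were not alike across mice. The log2 intensity of miR-20a-5p was 8.80, 9.11 and 8.95 in WT mice 1, 2 and 3 and 9.27, 9.12 and 9.34 in the WT-BLM mice. Every WT-BLM mouse was above every WT mouse, but the gap between the groups was only 0.0036 on the log2 scale. The difference was 0.29 (standard error 0.21, adjusted p = 1 in limma), a 1.22-fold higher level with a 95% interval from 0.871- to 1.72-fold. On the array of WT mouse 1 the spots of miR-20a-5p had intensities of 249 and 572 above the empty spots (net intensity), and without that pair of spots the difference was 0.21. In the authors' own normalized intensities miR-20a-5p was 343, 460 and 413 in WT and 523, 455 and 497 in WT-BLM mice, so that the groups overlapped.

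The level of miR-17-5p varied most from mouse to mouse among the miRNAs of its cluster. Its log2 intensity was 7.57, 8.64 and 8.66 in WT mice, against 8.19, 9.20 and 7.80 in WT-BLM mice. The groups overlapped throughout, with the lowest value in a WT mouse and the highest in a WT-BLM mouse. The difference was 0.11 (standard error 0.45, adjusted p = 1 in limma), with a 95% interval from 0.521- to 2.23-fold. The spots of miR-17-5p differed by at most 0.25 on any array, and the spread was present in the authors' intensities as well, from 111 in WT mouse 1 to 447 in WT-BLM mouse 2. Over the 6 mice miR-17-5p spanned 1.63 on the log2 scale and miR-20a-5p 0.54, against a median of 0.98 for all miRNAs tested. The SD within groups was 0.67 for miR-17-5p, larger than that of 85.8% of the tested miRNAs, and 0.14 for miR-20a-5p. The direction of miR-17-5p rested on single mice, with a log2 difference of -0.25 without WT mouse 1 and -0.29 without WT-BLM mouse 2.

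The remaining miRNAs of the miR-17 seed group, miR-106b-5p and miR-93-5p, come from the miR-106b-25 cluster. The log2 intensity of miR-106b-5p was 9.48, 9.18 and 9.21 in WT mice, against 9.24, 8.09 and 9.43 in WT-BLM mice. Only WT-BLM mouse 2 stood apart. On its array the net intensity of miR-106b-5p was 60.6 on one spot but 757 on the other, a gap of 2.58 on the log2 scale. With all spots the difference was -0.37 (standard error 0.37, adjusted p = 1 in limma, 95% interval 0.423- to 1.41-fold). Without that pair of spots the difference was 0.046, with the same value without WT-BLM mouse 2. In the authors' intensities miR-106b-5p was 554, 472 and 506 in WT and 500, 531 and 531 in WT-BLM mice, and these means of 511 ± 41.2 and 521 ± 17.9 (SD, n = 3) differed by less than the spread between mice.

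For miR-93-5p the log2 intensity was 8.57, 8.70 and 7.98 in WT mice, against 8.50, 8.74 and 8.57 in WT-BLM mice. The low value was that of WT mouse 3, whose array had the weaker signal and where miR-93-5p was not detected. The difference was 0.19 (standard error 0.26, adjusted p = 1 in limma, 95% interval 0.748- to 1.73-fold), and without WT mouse 3 it was -0.032. In the authors' intensities miR-93-5p was 252, 298 and 170 in WT and 280, 311 and 256 in WT-BLM mice.

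**Figure D2:**
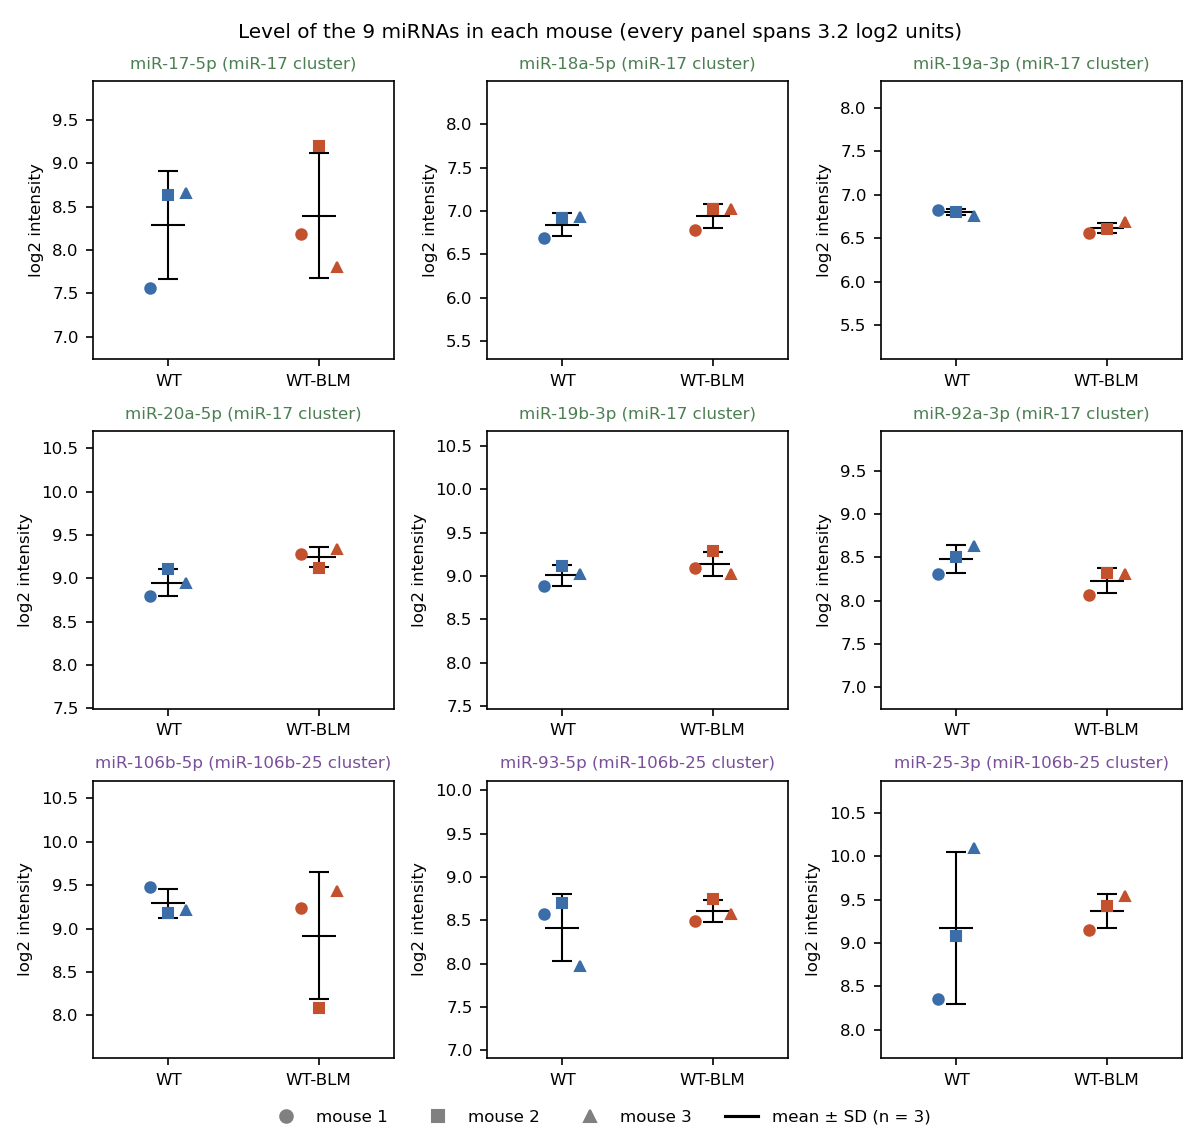
Log2 intensity of the 9 miRNAs in each of 3 WT (blue) and 3 WT-BLM mice (red), with mean ± SD, each panel spanning the same number of log2 units. Groups are apart for miR-20a-5p, by only 0.0036 and not in the authors' intensities, and for miR-19a-3p, by 0.075. The same holds for 4.73% of all tested miRNAs, whose groups do not overlap either. The widest spread is that of miR-17-5p and miR-25-3p, from 7.57 to 9.20 and from 8.35 to 10.09.

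The only miRNA with the miR-18 seed, miR-18a-5p, is known to repress Ccn2, the gene of the matrix protein CTGF. Its log2 intensity was 6.69, 6.92 and 6.93 in WT mice, against 6.78, 7.02 and 7.03 in WT-BLM mice, with overlapping groups. The difference was 0.10 (standard error 0.21, adjusted p = 1 in limma, 95% interval 0.762- to 1.51-fold). The mean of its spots lay only 35.6 to 83.4 above the empty spots on any array, so that the offset of 50 shrank its differences. With an offset of 16 the difference was 0.14, in the authors' values with an offset of 1 it was 0.27, and under 75th percentile scaling it was -0.19. In the authors' intensities miR-18a-5p was 31, 41 and 47 in WT and 48, 47 and 47 in WT-BLM mice.

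In the miR-19 seed group the miRNAs differ in sequence by a single base, and their differences between groups had opposite signs. The log2 intensity of miR-19a-3p was 6.83, 6.81 and 6.76 in WT mice, against 6.56, 6.60 and 6.68 in WT-BLM mice. After normalization every WT-BLM mouse was below every WT mouse, by a gap of 0.075. The difference was -0.18 (standard error 0.20, adjusted p = 1 in limma), with a 95% interval from 0.643- to 1.21-fold. The study picked miR-19a-3p among others from these same mice, so that the separation is not independent evidence of its direction. Its spots averaged 29.4 to 55.8 above the empty spots, and no tested miRNA had a smaller SD within groups. In these net intensities, before normalization, the groups overlapped. The lowest average, 29.4, was that of WT mouse 3, under the limit of 178 on its array, while the spots of WT-BLM mouse 2 read 41.8 and 50.5. On the array of WT mouse 1 the brightness within its first spot varied by 41.9% of its intensity, while on that of WT mouse 3 its spots read 42.3 and 16.6. With an offset of 16 the difference was -0.26, and in the authors' values with an offset of 1 it was -0.51. It was -0.51 under 75th percentile scaling as well, where the median of all tested miRNAs was -0.22. The authors' intensities were 38, 32 and 36 in WT and 27, 21 and 26 in WT-BLM mice, again without overlap.

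The other miRNA with the miR-19 seed, miR-19b-3p, was well above the empty spots on every array. Its log2 intensity was 8.88, 9.11 and 9.03 in WT mice, against 9.10, 9.29 and 9.02 in WT-BLM mice. The groups overlapped, and the difference was 0.13 (standard error 0.21, adjusted p = 1 in limma, 95% interval 0.780- to 1.53-fold). The authors' intensities were 331, 445 and 438 in WT and 443, 512 and 376 in WT-BLM mice.

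In the miR-92 seed group, miR-92a-3p of the miR-17 cluster and miR-25-3p of the miR-106b-25 cluster had differences of opposite sign. Both were below 0, however, with discordant spots set aside and without WT mouse 1. Under 75th percentile scaling both were below 0 as well, but the median of all tested miRNAs was -0.22 there. Relative to that median miR-25-3p was 0.22 higher and miR-92a-3p 0.26 lower. The log2 intensity of miR-92a-3p, which is known for restraining the growth of blood vessels, was 8.31, 8.50 and 8.62 in WT mice, against 8.06, 8.32 and 8.31 in WT-BLM mice. The lowest WT mouse lay just below the highest WT-BLM mice, and the other WT mice lay above them. The difference was -0.25 (standard error 0.21, adjusted p = 1 in limma, 95% interval 0.595- to 1.19-fold). It was negative in every alternative processing and without any single mouse. The authors' intensities of miR-92a-3p were 208, 263 and 318 in WT and 192, 217 and 210 in WT-BLM mice.

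The log2 intensity of miR-25-3p was 8.35, 9.08 and 10.09 in WT mice, against 9.15, 9.42 and 9.54 in WT-BLM mice. WT mice held both the lowest and the highest value, and the WT-BLM mice lay between them. For WT mouse 1 the spots had net intensities of 558 and 112, whereas for WT mouse 3 the spots were concordant at 631 and 691. The difference was 0.19 (standard error 0.43, adjusted p = 1 in limma, 95% interval 0.573- to 2.29-fold). Without the discordant pair of WT mouse 1 it turned to -0.22, beside -0.25 for miR-92a-3p, and without WT mouse 3 it was 0.65. In the authors' intensities miR-25-3p was 279, 440 and 909 in WT and 483, 572 and 575 in WT-BLM mice, with means of 543 in both groups.

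**Figure D3:**
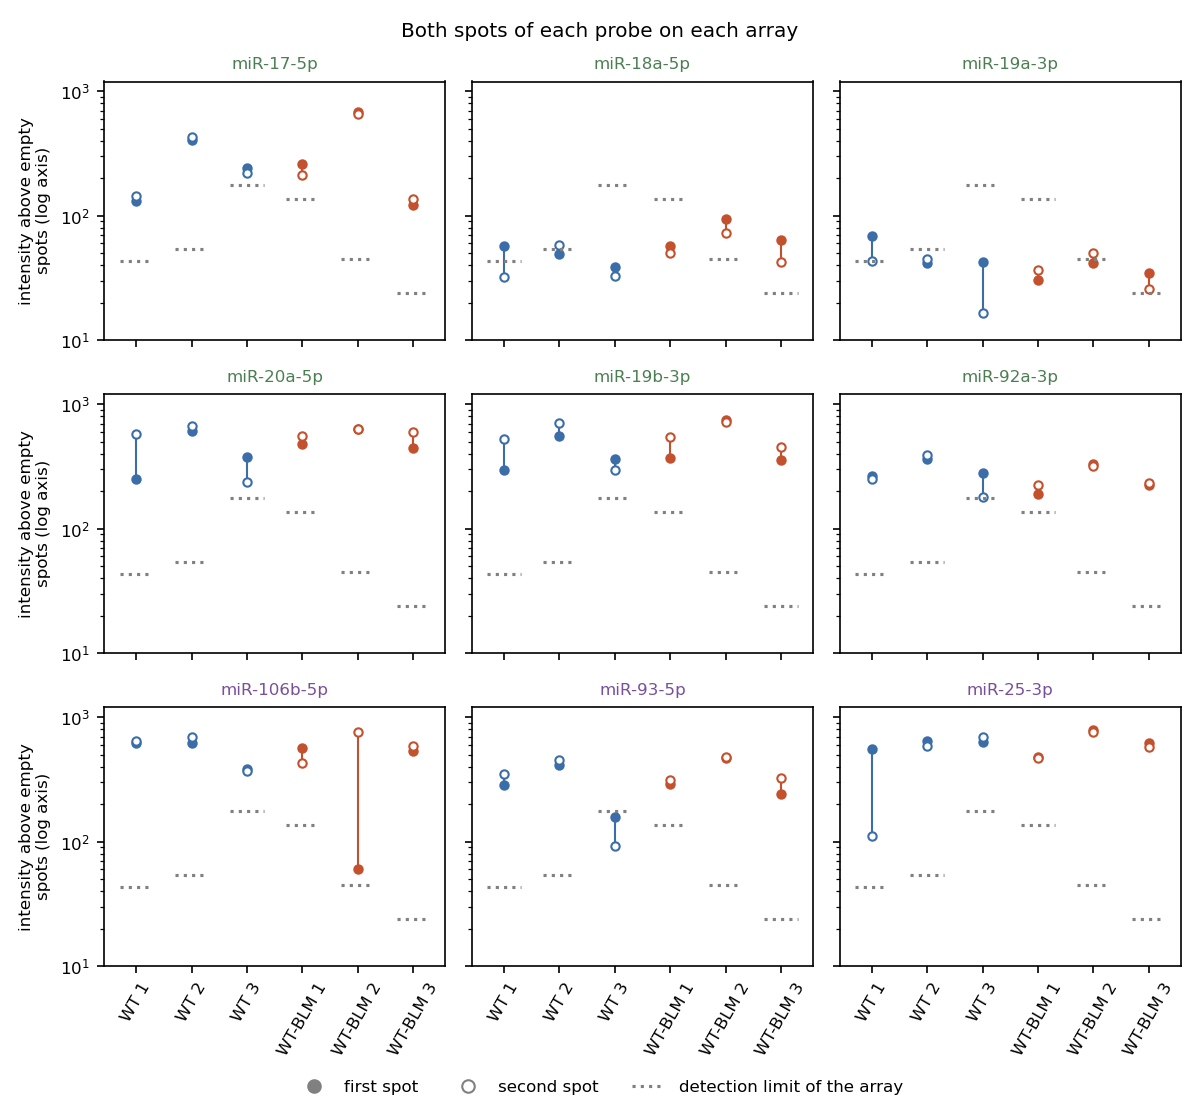
Intensity above the empty spots on a log axis for the first (filled) and second (open) spot of each probe on each of the 6 arrays, in blue for WT and red for WT-BLM, with the detection limit of the array (dotted). The spots lie far apart for miR-106b-5p in WT-BLM mouse 2 (60.6 and 757) and for miR-25-3p in WT mouse 1 (558 and 112), and miR-18a-5p and miR-19a-3p lie near or under the limits.

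Discordant spots were no more frequent for these miRNAs than for others. Of 54 pairs of spots, 9 miRNAs on 6 arrays, 3 were over 1 log2 unit apart, or 5.56%, against 5.82% of 1650 pairs over all tested miRNAs. The 3 pairs were those of miR-20a-5p and miR-25-3p in WT mouse 1 and of miR-106b-5p in WT-BLM mouse 2.

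Taken by cluster, the median log2 difference was 0.10 for the miR-17 cluster, with 4 of 6 miRNAs higher in WT-BLM lungs, and 0.19 for miR-106b-25, with 2 of 3 higher, against 0.04 for all miRNAs tested. When each miRNA was centred on its own mean over the 6 arrays, the mean of the miR-17 cluster was -0.23, 0.10 and 0.08 in WT mice, against -0.08, 0.18 and -0.05 in WT-BLM mice. That of the miR-106b-25 cluster was -0.16, 0.02 and 0.13 in WT mice, against -0.002, -0.21 and 0.22 in WT-BLM mice. The low values of WT mouse 1 and WT-BLM mouse 2 include the discordant spots of miR-25-3p and miR-106b-5p, at -0.92 and -1.02. On each of these arrays the other 2 miRNAs of the cluster were above their own means. The groups overlapped for both clusters, and WT mouse 1 gave the lowest value for the miR-17 cluster. Without WT mouse 1 both medians were negative, at -0.071 and -0.22, and without WT-BLM mouse 2 that of the miR-17 cluster was -0.061. Without WT mouse 3 the median of miR-106b-25 was -0.032. That median was 0.046 with discordant spots set aside, where the median of all tested was 0.047, and 0.012 with array weights, where the median of all tested was 0.012 as well.

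Taken by seed, the median log2 difference was 0.15 for the 4 miRNAs with the miR-17 seed, with 3 of them higher in WT-BLM lungs. Over all 275 miRNAs tested the median was 0.04, with 155 higher. It was -0.025 for the miR-19 seed and -0.027 for the miR-92 seed, with 1 of 2 miRNAs higher in each. In these quantile normalized values neither cluster and no seed group of more than 1 miRNA had the same sign throughout. Under 75th percentile scaling all 3 miRNAs of the miR-106b-25 cluster and both miRNAs of the miR-19 and of the miR-92 seed were below 0. The median of all tested was -0.22 there, and relative to it each of these groups stayed mixed. Above it were miR-93-5p by 0.17, miR-25-3p by 0.22 and miR-19b-3p by 0.096, while miR-106b-5p, miR-92a-3p and miR-19a-3p were below it. With discordant spots set aside, all 4 miRNAs of the miR-17 seed were higher in WT-BLM lungs, and none had an adjusted p under 0.05 in limma. The highest was miR-20a-5p at 0.21 and the lowest miR-106b-5p at 0.046, beside a median of 0.047 for all tested. All 4 were likewise above 0 in the authors' values with an offset of 50, from 0.028 to 0.26. There miR-106b-5p and miR-17-5p, at 0.028 and 0.038, lay just below the median of all tested, 0.039. Under 75th percentile scaling 3 of the 4 were below 0, but only miR-106b-5p was below the median of all tested, -0.22. Both miRNAs of the miR-92 seed were lower in WT-BLM lungs with discordant spots set aside, which moved their median from -0.027 to -0.23. That median was 0.16 with array weights, 0.24 without WT mouse 3 and 0.34 without WT mouse 3 and WT-BLM mouse 1. In the authors' values with an offset of 50 they were of opposite sign, at -0.27 for miR-92a-3p and 0.14 for miR-25-3p.

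The scaling of the arrays moved the 9 miRNAs together with the others. When arrays were scaled on the 75th percentile of the miRNAs detected on all 6, the median of all 275 miRNAs shifted from 0.04 to -0.22, and 5 of the 9 miRNAs turned from higher to lower in WT-BLM lungs, with miR-20a-5p alone above 0 at 0.026. Relative to that median, miR-20a-5p was 0.25 higher under both normalizations. Over the ways of processing all 6 arrays, some of which change only which miRNAs enter the median, miR-20a-5p lay 0.17 to 0.29 above the median of the miRNAs tested, and miR-19b-3p 0.059 to 0.13 above it. In contrast, miR-92a-3p lay 0.20 to 0.40 below that median, and miR-19a-3p 0.17 to 0.58 below it where it was tested. The place of miR-106b-5p reached from -0.49 to -0.0005 relative to that median, and those of miR-17-5p, from -0.038 to 0.12, and miR-25-3p, from -0.26 to 0.49, crossed it. For miR-18a-5p it was 0.027 to 0.19 and for miR-93-5p 0 to 0.19. Without the arrays that stood apart, those of WT mouse 3 and WT-BLM mouse 1, the 9 differences kept their signs, with miR-17-5p at 0.40, miR-18a-5p at 0.22, miR-20a-5p at 0.27, miR-92a-3p at -0.090, miR-106b-5p at -0.57, miR-93-5p at 0.021 and miR-25-3p at 0.76.

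**Figure D4:**
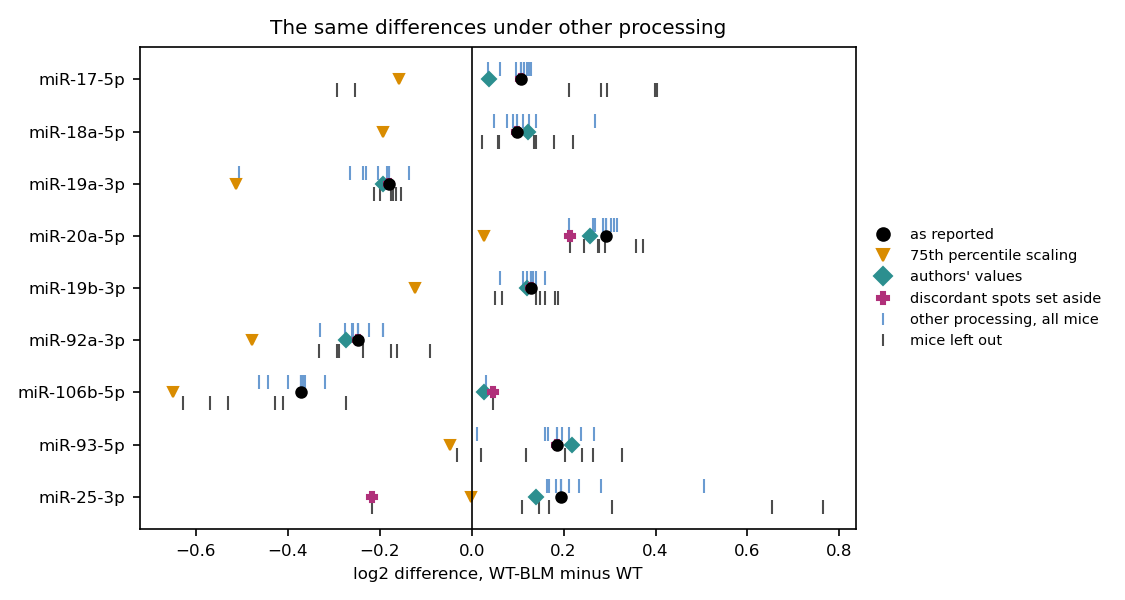
Log2 difference, WT-BLM minus WT, of the 9 miRNAs as reported (black), under 75th percentile scaling (orange), in the authors' values with an offset of 50 (teal), with discordant spots set aside (magenta), under other processing of all mice (blue ticks) and with mice left out (grey ticks). The sign of miR-19a-3p and miR-92a-3p is negative and that of miR-20a-5p positive throughout, while miR-106b-5p moves from -0.37 to 0.046 and miR-25-3p from 0.19 to -0.22 when discordant spots are set aside.

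The opposite arms of the 9 hairpins, cut from the other strand of each and usually degraded, were near the background. Of 9 opposite arms none was detected on 3 arrays, and 6 were detected on no array. The opposite arm of miR-17-5p, miR-17-3p, had its highest log2 intensities in WT mouse 3 and WT-BLM mouse 2, at 7.12 and 7.38 against 6.29 to 6.51 in the other mice. In each group the same mouse had the highest miR-17-5p, though among WT mice it was nearly tied, at 8.66 in mouse 3 and 8.64 in mouse 2. Detection of miR-17-3p was in WT-BLM mouse 2 alone.

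Of 10 mature miRNAs of the miR-106a-363 cluster, the third paralog on chromosome X, 3 were tested and 7 were detected on no array. The log2 difference was 0.10 for miR-106a-5p (standard error 0.26), 0.07 for miR-20b-5p (0.32) and -0.37 for miR-363-5p (0.82), and none had an adjusted or unadjusted p under 0.05 in limma. The sequence of miR-106a-5p, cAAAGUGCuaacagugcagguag, differs from that of miR-17-5p by U10A, counted with the base of miR-17-5p first. Its log2 intensity spanned only 7.54 to 7.88 in WT and 7.47 to 8.20 in WT-BLM mice, a narrower range than that of miR-17-5p.

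The pattern over the 6 arrays most like the mean of the miR-17 cluster, among 263 other tested miRNAs, was that of miR-24-2-5p, with a root mean square difference of 0.091 on the log2 scale after centring, followed by miR-331-3p at 0.11 and miR-30a-5p at 0.12. For miR-106b-25 these were miR-345-5p at 0.091, miR-484 at 0.093 and miR-10b-5p at 0.10. The median over all 263 was 0.37 and 0.38. The log2 differences of these neighbours lay between -0.085 and 0.16. By the same root mean square difference, miR-106b-5p was 0.60 from miR-93-5p and 0.79 from miR-25-3p, and miR-93-5p was 0.71 from miR-25-3p. Closeness to the mean of the miR-106b-25 cluster is therefore not closeness to its miRNAs.

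Marker miRNAs of lung cell types were present, with the 5 epithelial markers of the miR-200 family, the endothelial miR-126a-3p and both smooth muscle markers, miR-143-3p and miR-145a-5p, detected and tested. Erythroid and leukocyte markers bear on these clusters since blood cells express them too. All 3 erythroid markers (miR-451a, miR-144-3p and miR-486a-5p) were tested, with a median log2 difference of 0.026 and a summed normalized intensity of 13297 to 20559 in WT and 15713 to 20432 in WT-BLM lungs. For the 4 leukocyte markers (miR-223-3p, miR-142a-3p, miR-142a-5p and miR-150-5p) the median was 0.08 and the sums were 4639 to 4908 and 4142 to 5717. The endothelial markers had a median of 0.49 and sums of 7120 to 16604 in WT and 16164 to 21746 in WT-BLM lungs, with miR-126a-3p at a log2 difference of 0.76 (standard error 0.34). In the authors' values the log2 ratio of the means of miR-126a-3p was 0.47, with its lowest value, 6111, in WT mouse 3, whose array stood apart. For the epithelial markers the median was 0.06 and the sums were 5839 to 9324 and 7462 to 8946. For the smooth muscle markers the median was -0.47 and the sums were 22316 to 27496 and 14284 to 22561. In the authors' values the smooth muscle sums were 21070 to 26484 and 19281 to 22424, and the low log2 intensity of miR-143-3p in WT-BLM mouse 1, 11.64 against 13.55 and 13.59 in the other WT-BLM mice, was not seen there. Over the 2 striated muscle markers tested the median was -0.95. The striated muscle sum was 1050 to 11009 in WT lungs, highest in WT mouse 2, and 1316 to 1986 in WT-BLM lungs, and miR-122-5p of liver was detected on 1 WT array only. None of the markers tested, which left out miR-206-3p of striated muscle and miR-122-5p, had an adjusted p under 0.05 in limma, where 0 of 275 miRNAs had, and their part in the levels of the 9 miRNAs was not tested.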

How the data were processed

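The authors' deposited spot table holds, for each of 5022 spots per array, a median intensity and the SD of brightness within the spot, linear and not background-subtracted. Their second table holds 1 background-subtracted, normalized intensity per probe, by a method not given in the sources used here. Over miRNA probes detected on all arrays, log2 of that table correlated across probes at 0.974 to 0.996 per array with the log2 intensities computed here, so that its scale is linear and its direction the same. Its column medians were 4 on 5 arrays and 3 on that of WT mouse 3.

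The spot intensities were corrected by normexp (offset 50, all spots) with limma 3.58.1 in R 4.3.3. After removal of control spots, quantile normalization was applied to log2 values of miRNA spots, and the 2 spots per probe were averaged. The 275 of 1963 probes that passed the detection filter entered lmFit and eBayes, and p-values were adjusted over all 275 by the Benjamini-Hochberg method. The files name no slide or scan. The number of arrays limits the precision. The p-values of limma rest on the spread between mice, with the SD of each miRNA drawn toward a value shared by all 275. For miR-19a-3p the SD within groups was 0.049 and the standard error 0.20, with an unadjusted p of 0.39 in limma and 0.011 in the unpaired t-test. Alternatives covered background, offset, normalization, filter, discordant spots, test, the authors' values and mice left out. The steps were tested on simulated data, where the planted changes were several times larger than any difference of the 9 miRNAs. That test therefore does not show whether differences of their size could be found. The members, lists and tests were chosen with earlier results of these data known. Besides the 9 miRNAs, the text names their opposite arms, the paralogous cluster, marker lists and the 3 miRNAs closest to each cluster in pattern. Mice of the same number were not treated as paired, since their deviations from the group means correlated at only 0.16, 0.03 and 0.07.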

Additional observations from a re-analysis of the deposited data

How the results depend on the processing

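None of the 9 miRNAs reached an adjusted p under 0.05 under any alternative run. The number of miRNAs with an unadjusted p under 0.05, 5 in the report, was 46 without a filter, 1 with miRNAs detected on all arrays, 12 with detection by a robust SD, 14 with array weights, 9 in the paired t-test and 8 each under 75th percentile scaling, under cyclic loess and with the replicate block. The replicate block and the filters left the log2 difference of each miRNA as it was and so do not bear on its sign. Over the omission of single mice that number lay between 1 and 21 (21 without WT mouse 3, 12 without WT mouse 1, 3 without WT-BLM mouse 1 and 1 without WT-BLM mouse 3), and it was 17 without WT mouse 3 and WT-BLM mouse 1 together, which was chosen after the data had been seen. Slide and scan could not be fitted as blocks, since the files name neither. Under 75th percentile scaling the log2 difference was -0.16 for miR-17-5p, -0.19 for miR-18a-5p, -0.12 for miR-19b-3p, -0.046 for miR-93-5p and -0.0011 for miR-25-3p, and the median was -0.18 for the miR-17 cluster, -0.046 for the miR-106b-25 cluster, -0.10 for the seed AAAGUGC and -0.22 for all miRNAs tested. The median of all tested was -0.011 under cyclic loess and -0.0010 without a filter. That of the seed AUUGCAC was 0.044 without normalization, 0.16 with array weights and 0.34 without WT mouse 3 and WT-BLM mouse 1, and that of the miR-106b-25 cluster was -0.088 among miRNAs detected on all arrays. With discordant spots set aside miR-106b-5p was at 0.046, miR-25-3p at -0.22 and the median of the seed AUUGCAC at -0.23, and in the authors' values miR-106b-5p was at 0.028 with an offset of 50 and 0.030 with an offset of 1. With single mice left out, the range was -0.29 to 0.40 for miR-17-5p, -0.63 to 0.046 for miR-106b-5p, -0.032 to 0.33 for miR-93-5p and -0.22 to 0.65 for miR-25-3p. For the medians it was -0.071 to 0.16 for the miR-17 cluster, -0.22 to 0.24 for the miR-106b-25 cluster, -0.019 to 0.31 for the seed AAAGUGC, -0.27 to 0.24 for AUUGCAC, -0.061 to 0.0037 for GUGCAAA and -0.0074 to 0.10 for all tested. The sign of miR-19a-3p, miR-20a-5p and miR-92a-3p did not change under any alternative run. The cause of these changes was not tested.

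Signals of miR-18a-5p and miR-19a-3p near the empty spots limit what can be said of their fold changes, and with 3 mice a group no exact test of a single miRNA can go below 0.10.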
